A study of Mus musculus with 12 samples.

Results

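Mt1 and Mt2 encode the metallothioneins of mouse liver, small proteins rich in cysteine that bind zinc and copper and sequester cadmium. The table of N6-methyladenosine (m6A) peaks was searched for every peak whose gene annotation holds Mt1 or Mt2, which gave 4 of 37118 peaks, 2 for each gene, and all 4 passed the filter on low counts. The peaks come from livers of male wild-type C57BL/6 mice, described as 6 to 8 weeks old, that received CdCl2 by gavage at 0 mg/kg/day (control) or 20 mg/kg/day (cadmium) and were sampled at day 90. In MeRIP-seq, fragments that carry m6A, adenosines methylated within RNA, are pulled down with an antibody and the reads under each peak are counted. The counts cover 3 control and 3 cadmium libraries, and replicates 1, 2 and 3 of both groups are labelled as batches 1, 2 and 3. The protocol names 6 mice per group, and how the 3 libraries relate to them is not stated, so p-values measure only the spread between these libraries. The heading of each count column fits both libraries of a sample, immunoprecipitated and input, and the columns were read as immunoprecipitated libraries because the rows are m6A peaks. Input libraries were not analysed here, so the amount of metallothionein RNA and its methylated share cannot be told apart in any value given.

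Transcription of both genes is driven by MTF1, a zinc finger factor that binds metal response elements in their promoters when zinc is released or cadmium enters the cell. Glucocorticoid hormone, cytokines of the acute phase and oxidative stress are further inducers of both genes in liver. Mt3 and Mt4, the brain and epithelial members of the same gene cluster, had 0 peaks in the table.

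Sequence in front of both genes is shown because the metal response element is where MTF1 acts. It comes from RefSeq on GRCm38.p6, on the plus strand, with the 30 bases before the transcript start of Mt1 (chr8:94179059-94179088) and the 250 bases before that of Mt2 (chr8:94172368-94172617). Capitals mark matches to the core of the metal response element, TGCACNC or TGCGCNC, on either strand.
Mt1: cccgctgTGCACACtggcgctccagggagc
Mt2: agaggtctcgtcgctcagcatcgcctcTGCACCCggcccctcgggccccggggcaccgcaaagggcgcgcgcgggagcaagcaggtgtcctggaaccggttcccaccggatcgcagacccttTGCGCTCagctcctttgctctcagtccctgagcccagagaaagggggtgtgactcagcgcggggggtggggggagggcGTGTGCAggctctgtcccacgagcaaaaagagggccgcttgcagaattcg
In the first 50 bases after the start there were 2 more matches for Mt1, within 94179091 to 94179115, and 1 more for Mt2, at 94172622 to 94172628.
Mt1 after the start: TGCACTCcgcccgaaaagTGCGCTC
Mt2 after the start: GTGCGCA
Over this window of 300 bases, Mt1 held 3 matches and Mt2 held 4. At least 1 match was present in 25.7% of 32851 such windows over all genes, at least 3 in 1.97% and at least 4 in 0.517%. The core of the antioxidant response element, TGACNNNGC on either strand, was found once in the Mt2 window, at 94172539 to 94172547, was not found in the Mt1 window, and was present in 12.4% of windows. RefSeq also lists an earlier start of the Mt1 gene, at 94178883, and other start sites of either gene were not analysed here. The main start of either gene in liver may lie elsewhere, so matches placed after a start here may lie before that one. These counts hold only for the windows at the starts used. A match is a string of letters and says nothing of binding in these livers. Whether the matches have a part in the peak values was not tested.

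On mm10, the Mt2 peaks lay at chr8:94172853-94172963 and chr8:94173158-94173492, with widths of 110 and 334 bp. RefSeq places the gene between 94172618 and 94173567, so the first peak began 235 bp after the gene's start and the second ended 75 bp before its end. The Mt1 peaks lay at chr8:94179248-94179430 and chr8:94179862-94180273, with widths of 182 and 411 bp. They began 159 and 773 bp after the transcript start used above. The second Mt1 peak ended 54 bp before the end of the gene at 94180327. Each gene therefore had a narrower peak towards its start and a wider one close to its end. Both Mt2 peaks also carry the symbol of the predicted gene Gm45774, which had no other peak, and with the strand of counting not stated the reads of Mt2 and Gm45774 could not be told apart. Exon, intron and UTR positions of the peaks were not analysed here. Mt1 and Mt2 are close in sequence and may share reads, so their separate values are uncertain to that extent.

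Libraries held 40174736 to 52338612 counts in peaks, and the 2 largest peaks of the table, which belong to neither gene, took 4.95% to 19.7% of them. Hepatocyte markers were abundant: 9 of 10 listed markers had a peak, with summed levels of 19992 to 21823 CPM in control and 18043 to 20639 CPM in cadmium libraries. Levels are given as CPM, counts scaled to a common library size after TMM normalisation, and a peak was called when its edgeR quasi-likelihood p, adjusted by Benjamini-Hochberg over all 37088 tested peaks, was below 0.05. By that rule 6.27% of all tested peaks were called, 3.55% higher and 2.72% lower in cadmium libraries (1317 and 1008 peaks, falling to 282 and 261 without cadmium replicate 3 and to 582 and 496 without control replicate 3).

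All 4 metallothionein peaks were higher in cadmium-exposed livers, by 8.95-fold to 18.9-fold, against that background of 3.55% of peaks called higher. Raw counts per peak ran from 408 to 4428 in control libraries and from 8159 to 42168 in cadmium libraries, so counting error alone was at most 4.95% of any value. For every peak the lowest cadmium library exceeded the highest control library, by 4.72-fold to 9.75-fold. Over all tested peaks, 14.4% had every cadmium library above every control library.

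The wider, second peak of Mt2 was at 21.6, 21.4 and 53.8 CPM in control replicates 1, 2 and 3 and at 524, 606 and 699 CPM in cadmium replicates 1, 2 and 3. Controls 1 and 2 were nearly equal, control 3 stood above both, and no cadmium library came near the control range. The group means were 32.3 ± 18.7 and 610 ± 87.5 CPM (SD, n = 3), an 18.9-fold difference (log2 change 4.24, SE 0.36, edgeR adjusted p = 0.000844).

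The first Mt2 peak was at 8.31, 8.74 and 20.7 CPM in control replicates 1, 2 and 3 and at 193, 208 and 233 CPM in cadmium replicates 1, 2 and 3. The order of libraries was close to that of the second peak, with control 3 highest among controls and cadmium 1 lowest among cadmium libraries. Its fitted log2 change was 4.07 (SE 0.34, edgeR adjusted p = 0.000844).

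The second peak of Mt1 had the highest group means of the 4 before scaling to length, at 37.0, 56.3 and 100.3 CPM in control replicates 1, 2 and 3 and at 487, 763 and 708 CPM in cadmium replicates 1, 2 and 3. Controls spread over a wider relative range than cadmium libraries, and the groups did not overlap. In cadmium replicate 1 it stood below the second Mt2 peak. Means were 64.5 ± 32.4 and 652 ± 146 CPM (SD, n = 3), a 10.1-fold difference (log2 change 3.34, SE 0.34, edgeR adjusted p = 0.00106).

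The first Mt1 peak was at 14.8, 23.4 and 41.1 CPM in control replicates 1, 2 and 3 and at 194, 273 and 243 CPM in cadmium replicates 1, 2 and 3. Here too control 3 was the highest control and cadmium 1 the lowest cadmium library. Its log2 change was 3.16 (SE 0.33, edgeR adjusted p = 0.00106), the smallest of the 4.

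**Figure D1:**
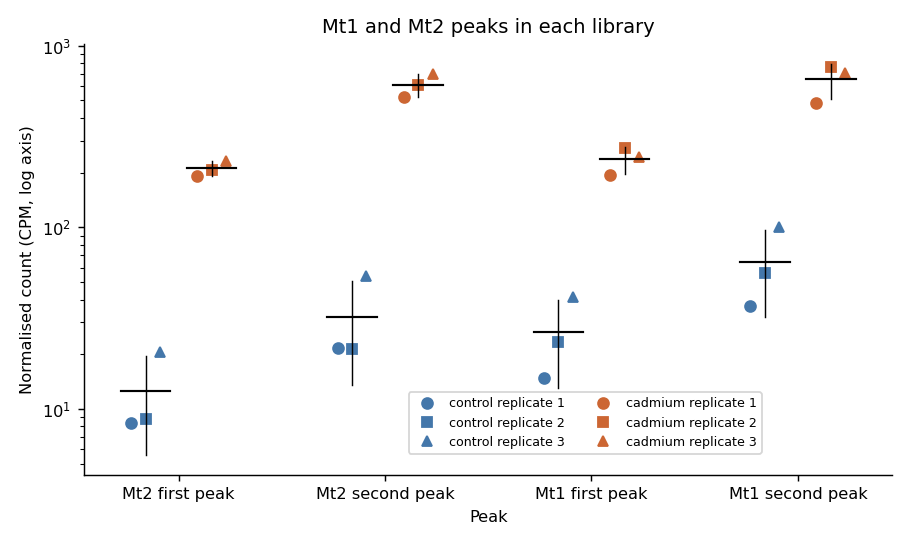
Normalised counts (CPM, log axis) of the 4 peaks in each library, with circles, squares and triangles for replicates 1, 2 and 3, horizontal lines for group means and vertical lines for 1 SD (n = 3). All cadmium libraries lie above all control libraries, and control replicate 3 is the highest control at each peak.

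The authors' deposited table gives the same direction for all 4 peaks, with log2 fold changes of 4.07 and 4.24 for the first and second peak of Mt2 and 3.16 and 3.33 for those of Mt1, and calls each of them Up. The first Mt2 peak has the smallest p-value in the authors' deposited table (rank 1, adjusted p = 2.72e-44), while the second, with more counts and a larger fold change, ranks 53.

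Among all 37088 tested peaks, the log2 changes of the Mt2 peaks ranked 2 (second peak) and 3 (first peak), and those of the Mt1 peaks 9 (second) and 11 (first), from the highest down. Over all tested peaks 0.0404%, 15 in number, had a mean at least 8-fold higher in cadmium libraries, and the 4 metallothionein peaks were among them. Of these 15, the metallothionein peaks had control means of 12.6 to 64.5 CPM, and the other 11 had control means of 0.224 to 2.05 CPM. The second peaks of Mt1 and Mt2 ranked 2491 and 5456 by level in control livers and 94 and 110 in cadmium livers. The 4 peaks together went from 135.8 ± 70.8 to 1711 ± 271 CPM (SD, n = 3). As a share of all peak counts they took 0.00766% in control replicate 1 (95% Wilson interval 0.00743% to 0.00790%, counting error only) and 0.200% in cadmium replicate 2 (0.199% to 0.201%), the lowest and the highest of the 6 libraries. By summed CPM the highest library was instead cadmium replicate 3, at 1883 CPM, with cadmium replicate 2 at 1850 CPM.

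**Figure D2:**
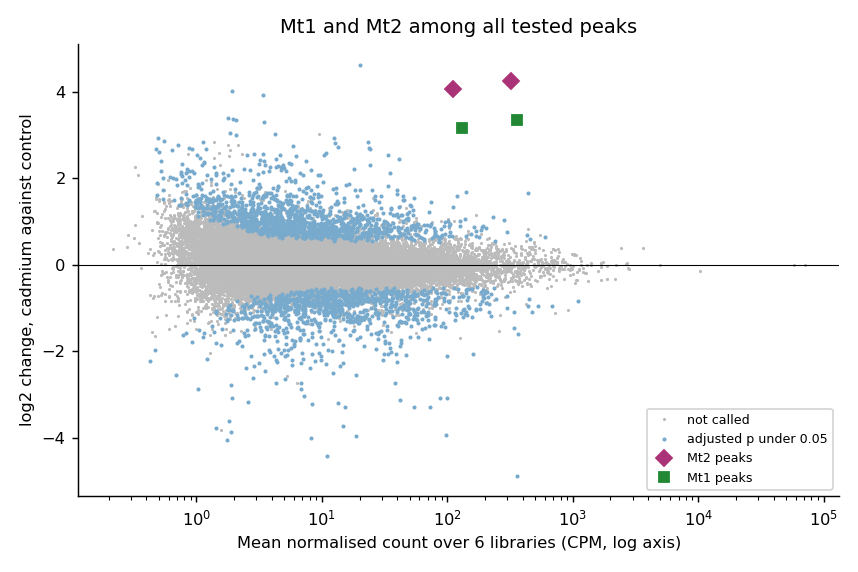
Each point is 1 tested peak, with its mean level over the 6 libraries (CPM, log axis) against its log2 change between cadmium and control. The Mt2 peaks (diamonds) and Mt1 peaks (squares) have log2 changes of 3.16 to 4.24 at levels where no other peak rises that far.

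The change could also be read within batches. Cadmium minus control on the log2 scale at the second Mt2 peak was 4.60, 4.82 and 3.70 in batches 1, 2 and 3. At the second Mt1 peak it was 3.72, 3.76 and 2.82. The rise was present in every batch and smallest in batch 3, which holds control replicate 3, at all 4 peaks. With the batch as a block the calls stayed, with edgeR adjusted p of 0.000322 to 0.000805.

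**Figure D3:**
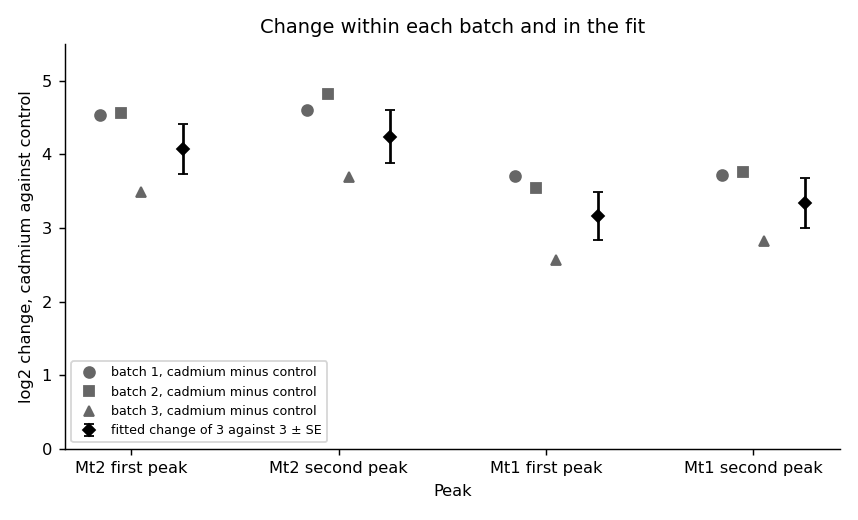
Log2 difference between the cadmium and the control library of each batch (circles, squares and triangles for batches 1, 2 and 3) at the 4 peaks, and the fitted change of 3 against 3 libraries with its SE (diamonds). Batch 3 gives the smallest difference at every peak, 2.56 to 3.70 on the log2 scale.

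Metallothionein levels varied more among the 3 control libraries than among the 3 cadmium libraries. For Mt2 the control spread came from control replicate 3, with controls 1 and 2 at 21.6 and 21.4 CPM at the second peak. The coefficient of variation over 3 libraries was 50.3% to 57.8% for the 4 peaks in controls and 9.65% to 22.4% in cadmium livers. The SD of log2 CPM in controls, 0.72 to 0.76, lay at the 98.3rd to 98.6th percentile of 18544 peaks at or above the median level, whose median SD was 0.20. In cadmium livers the same SD was 0.14 to 0.35, at the 40.7th to 89.9th percentile, beside a median of 0.16. The difference in spread between the groups was not tested.

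Control replicate 3 was the highest control at all 4 peaks, 2.15-fold to 2.5-fold above the mean of the other controls. Both Mt2 peaks were at least 2-fold above each of the other controls there, as were 21 of 18544 peaks at or above the median level. Chosen after their values were seen, the other peaks of that kind included Rgs16, a regulator of G-protein signalling, Dusp1, a phosphatase induced by stress and glucocorticoids, Ddit4, an inhibitor of mTORC1 signalling, and Gadd45g, a stress gene. Dusp1 was at 42.7, 39.8 and 113.6 CPM in control replicates 1, 2 and 3. Other glucocorticoid-induced genes were mixed in that library. Tsc22d3 was highest there (131, 197 and 272 CPM in control replicates 1, 2 and 3) and Pck1 lowest (1538, 1504 and 1223 CPM). Without control replicate 3 the log2 changes were 4.63 and 4.83 at the first and second peak of Mt2 and 3.63 and 3.81 at those of Mt1, the highest of the 6 fits that each left out 1 library, and the second Mt2 peak then moved by 1.5 times on the linear scale. The lowest values, 3.85 and 4.02 for Mt2 and 2.88 and 3.06 for Mt1, came without control replicate 1 or 2, and each peak was called in all 6 of these fits (highest edgeR adjusted p 0.00579).

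The rise of Mt2 was larger than that of Mt1 in each batch. The ratio of Mt2 to Mt1 counts at their second peaks, taken within each library, was 0.583, 0.381 and 0.536 in control replicates 1, 2 and 3 and 1.08, 0.795 and 0.988 in cadmium replicates 1, 2 and 3. Every cadmium library had a higher ratio than every control library. On the log2 scale the mean ratio moved by 0.94, or 1.92-fold, towards Mt2 (exact two-sided permutation p = 0.10, n = 3 per group, the smallest p that 3 against 3 can give, and 0.10 after adjustment over the 3 ratios tested). Within batches the shift was 0.89, 1.06 and 0.88. As a share of all metallothionein counts, the Mt2 peaks held 27.5% to 36.6% in control and 44.0% to 51.3% in cadmium libraries.

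Counts of the peaks can be compared per length of peak, within each library. Widths depend on peak calling, and RNA amount and methylated share are not separated, so these values are not levels of the genes. Per kb of second peak, Mt1 stood at 90.1, 137 and 244.1 CPM and Mt2 at 64.6, 64.1 and 161 CPM in control replicates 1, 2 and 3. In cadmium replicates 1, 2 and 3 the second peaks stood at 1184, 1856 and 1723 CPM per kb for Mt1 and at 1570.2, 1815 and 2094 for Mt2. By this measure the Mt1 peak was the higher in 3 of 3 control libraries, and the Mt2 peak in cadmium replicates 1 and 3 but not 2. At the first peaks the means were 145 ± 73.8 CPM per kb for Mt1 and 114 ± 63.8 for Mt2 in control livers (SD, n = 3), and 1300 ± 218 and 1922 ± 185 in cadmium livers. There the Mt1 peak was higher in 3 of 3 control libraries and the Mt2 peak in 3 of 3 cadmium libraries. These orders within libraries were not tested.

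Within a gene, the second peak stood slightly higher relative to the first in cadmium livers. The ratio of second to first peak for Mt2 was 2.59, 2.45 and 2.60 in control replicates 1, 2 and 3 and 2.72, 2.91 and 3.00 in cadmium replicates 1, 2 and 3. For Mt1 it was 2.5, 2.41 and 2.44 in control and 2.51, 2.79 and 2.92 in cadmium replicates 1, 2 and 3. The cadmium libraries were above the control libraries for both genes, by a mean of 0.17 for Mt2 and 0.16 for Mt1 on the log2 scale (exact two-sided permutation p = 0.10 for each, n = 3 per group), and in batch 1 the difference for Mt1 was 0.004. These ratios were added after the counts were seen. A test across all genes of whether peaks of 1 gene change unequally (diffSpliceDGE of edgeR) called 0.225% of 7539 genes and called neither Mt1 (unadjusted p = 0.741) nor Mt2 (unadjusted p = 0.752), each with an adjusted p of 1.

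**Figure D4:**
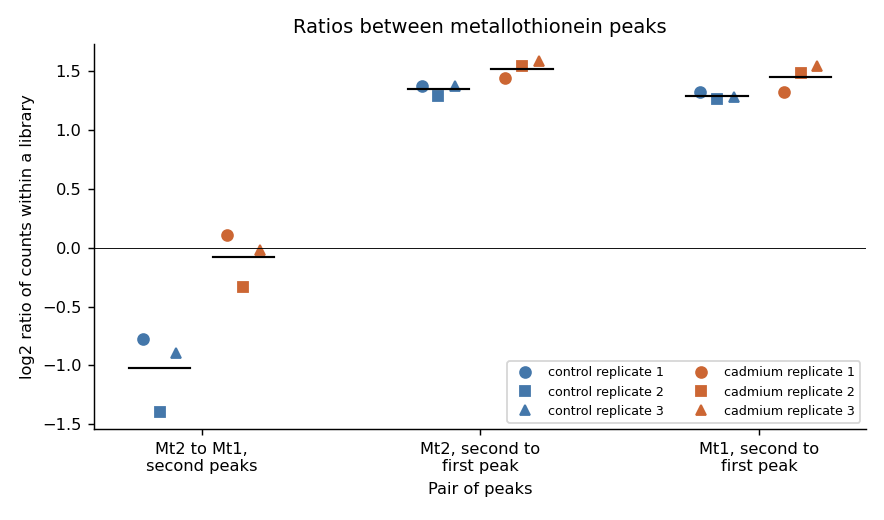
Log2 ratios of raw counts within each library, for Mt2 to Mt1 at the second peaks and for the second to the first peak of each gene, with blue for control, orange for cadmium and lines for group means. The Mt2 to Mt1 ratio moves from a mean of -1.02 to -0.08, while the ratios within a gene move by 0.16 to 0.17.

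The neighbouring genes Ogfod1 and Gm15889 changed less than the metallothioneins. Those described here lie within 200 kb of the metallothionein peaks. Ogfod1, a ribosomal prolyl hydroxylase gene 108 to 131 kb away, had 5 peaks with log2 changes of 0.38 to 1.40, of which 2 were called (edgeR adjusted p = 0.0226 and 0.0375), at control means of 0.843 to 3.63 CPM. Those 2 calls held in 2 and in 1 of the 6 fits that left out a library. The predicted gene Gm15889, at 2.99 ± 1.01 CPM in control livers, was lower in cadmium livers (SD, n = 3, log2 change -1.24, edgeR adjusted p = 0.0372, 0.0578 with the replicate block), and was called in 1 of those 6 fits.

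Mtf1, the factor that drives both genes, had 8 peaks and was not called at the most abundant of them. The other peaks of Mtf1 are not described here. Its most abundant peak, which also carries the symbol 1110065P20Rik, was at 22.2, 25.5 and 27.1 CPM in control and 19.6, 18.5 and 26.7 CPM in cadmium replicates 1, 2 and 3 (log2 change -0.21, SE 0.18, edgeR adjusted p = 0.54). The groups overlapped, and this level says nothing of the protein or its activity. For the lists that follow, each gene stands by its most abundant peak, and by the same rule 6.8% of all 13050 genes were called, 4.4% higher and 2.4% lower, with a median log2 change of 0.02.

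Zinc transporters, which move zinc and related metals across membranes, were called at 3 of 17 measured members of 24 listed, 2 higher and 1 lower, with a median log2 change of 0.12. Slc30a1, the zinc exporter of the plasma membrane and itself an MTF1 target, was at 95.6, 130.3 and 123.4 CPM in control and 158, 175 and 238 CPM in cadmium replicates 1, 2 and 3 (log2 change 0.71, SE 0.19, edgeR adjusted p = 0.0492). The groups did not overlap, but the call held in only 1 of 6 fits that left out a library, that without cadmium replicate 1. Slc30a10, a metal exporter, rose by 0.81 on the log2 scale (SE 0.19, edgeR adjusted p = 0.0301) and Slc30a9 fell by 0.56 (SE 0.14, edgeR adjusted p = 0.041). The call of Slc30a10 ended when cadmium replicate 1 or 3, or control replicate 1 or 2, was left out (adjusted p up to 0.0886), and Slc30a9 was called in none of the 6 fits (up to 0.152). The abundant importers Slc39a14 (log2 change -0.19) and Slc39a7 (-0.06) were not called.

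Copper genes, whose metal is also bound by metallothioneins, were called at 1 of 12 measured members, with a median log2 change of 0.07. The member was Sco2, a copper chaperone of cytochrome oxidase whose peak is shared with Ncaph2 and Tymp, at 68.9 ± 4.93 in control and 111 ± 12.9 CPM in cadmium livers (SD, n = 3, log2 change 0.69, SE 0.15, edgeR adjusted p = 0.0215). Its call ended when cadmium replicate 2 or 3, or control replicate 3, was left out (adjusted p up to 0.108). Cp, the plasma copper oxidase ceruloplasmin (log2 change 0.15), and Sod1, the copper and zinc superoxide dismutase (-0.21), were not called.

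Genes induced by glucocorticoid hormone, another inducer of Mt1 and Mt2, were called lower at 6 of 13 measured members and higher at 0, with a median log2 change of -0.86. Per1, a clock repressor, was at 22.2, 34.0 and 30.9 CPM in control and 4.96, 11.3 and 10.1 CPM in cadmium replicates 1, 2 and 3 (log2 change -1.72, SE 0.28, edgeR adjusted p = 0.0076). The groups did not overlap, and whether the hormone has a part in the metallothionein values was not tested. Tat, the tyrosine aminotransferase, fell by 1.2 on the log2 scale (SE 0.19, edgeR adjusted p = 0.00725), Dusp1 fell by 1.73 (SE 0.36, edgeR adjusted p = 0.0195) and Tsc22d3, the anti-inflammatory protein GILZ, fell by 1.16 (SE 0.24, edgeR adjusted p = 0.0196). The list held 2 calls without cadmium replicate 3, 3 without control replicate 3 and 9 lower with the replicate block, which added Fkbp5, Zbtb16 and G6pc. The call of Dusp1 ended with cadmium replicate 2 or 3 left out (adjusted p up to 0.0842), and that of Tsc22d3 with cadmium replicate 1 or 3, or control replicate 3, left out (up to 0.0967). G6pc, the glucose-6-phosphatase of glucose production (log2 change -0.80, edgeR adjusted p = 0.255), was called with the replicate block (edgeR adjusted p = 0.0275), and Klf9 (0.28) was not called.

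Acute phase genes, which respond to the cytokines that also induce metallothioneins, were called higher at 4 of 18 measured members and lower at 1, with a median log2 change of 0.41. The serum amyloid gene Saa2 was at 5.97, 7.17 and 6.50 CPM in control and 24.3, 54.0 and 47.2 CPM in cadmium replicates 1, 2 and 3 (log2 change 2.68, SE 0.27, edgeR adjusted p = 0.00106). Cadmium replicate 1 was the lowest cadmium library for Saa2, as for all 4 metallothionein peaks. Control replicate 3, the highest control at the metallothionein peaks, was not the highest for Saa2. A link between Saa2 and the metallothioneins was not tested. Saa1 rose by 2.46 (SE 0.35, edgeR adjusted p = 0.00408) and Saa3 by 1.83 on the log2 scale (SE 0.31, edgeR adjusted p = 0.00907). Members of the Saa family may share reads. Il6ra, a receptor subunit for IL-6, fell by 0.56 (SE 0.14, edgeR adjusted p = 0.0407) but was called in none of the 6 fits that left out a library (adjusted p up to 0.116), and without cadmium replicate 1 the list held 7 calls higher. The abundant Fga (log2 change 0.38) and Hp (-0.04) were not called.

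Targets of NRF2, the factor that acts through the antioxidant response element, were called at 1 of 14 measured members of 17 listed, with a median log2 change of -0.08 and 11 of 14 changes below 0. That member was Hmox1, haem oxygenase 1, at 1.93 ± 0.475 in control and 3.77 ± 0.716 CPM in cadmium livers (SD, n = 3, log2 change 0.97, SE 0.24, edgeR adjusted p = 0.0406). The call ended when any of cadmium replicates 2 and 3 and control replicates 1 and 3 was left out (adjusted p up to 0.136). Members called lower numbered 2 without control replicate 1 and 1 without cadmium replicate 3. Gstm1 (log2 change -0.14) and Osgin1 (-0.06), the most abundant members not called, differed little between groups. Among all members of these 6 lists, Mt2 and Mt1 had the largest changes and Saa2 the next.

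**Figure D5:**
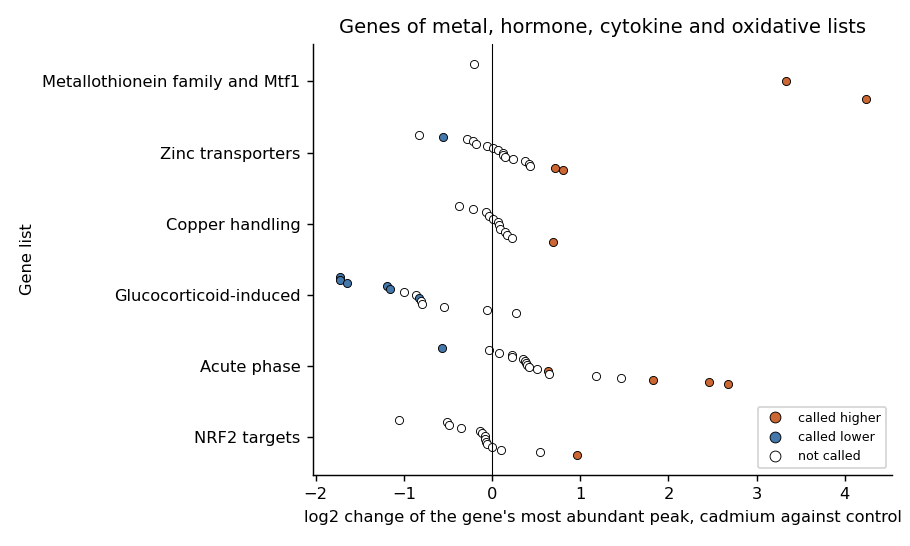
Log2 change between cadmium and control of each listed gene's most abundant peak, by list, with orange for called higher, blue for called lower and white for not called. Mt1 and Mt2 stand at 3.34 and 4.24, beyond the highest value of the other lists (2.68, Saa2).

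A liver sample pools many cell types, and in it more cells of a type and more RNA per cell cannot be told apart. Kupffer cell markers were called higher at 3 of 6 measured members of 8 listed. These were the scavenger receptor family gene Cd5l and the complement genes C1qa and C1qb. The other measured members, Clec4f (log2 change 0.14), Vsig4 (-0.81) and Marco (-0.35), were not called, and Adgre1 and Timd4 had no peak. Summed levels were 127 to 187 CPM in control and 223 to 282 CPM in cadmium livers. The number of Kupffer markers called was 0 without cadmium replicate 3 and 1 without control replicate 3. Stellate cell markers were called at 0 of 7 (2 higher with the replicate block, 3 without control replicate 2 and 4 by DESeq2). All 7 stellate log2 changes were above 0, with a median of 0.60. Summed stellate levels were 135 to 189 CPM in control and 232 to 247 CPM in cadmium livers. Endothelial markers were called higher at 1 of 6 measured, with summed levels of 103 to 157 CPM in control and 120 to 171 CPM in cadmium livers, and that call was lost without any single library other than control replicate 1. Biliary markers were called at 0 of 3 measured of 6 (22.4 to 29.6 and 18.7 to 66.7 CPM, and 3 higher without cadmium replicate 2), blood cell markers at 0 of 2 of 6 and pancreas markers at 0 of 1 of 6. The part of these cells in the metallothionein values was not tested. Hepatocyte markers were called at 0 of 9, with a median log2 change of 0.02.

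Over the 6 libraries the 4 metallothionein peaks followed each other closely, with Pearson r of log2 CPM of 0.991 to 0.9998 between pairs of peaks. These values, and those that follow, describe libraries that fall into 2 separate groups and share depth and batch, and carry no test. Of 8385 other genes at or above the median level, 142 had an r above 0.95 with their mean. The 5 highest were Pbxip1 (r = 0.9999), which interacts with PBX factors, Hsd3b7 (0.996), an enzyme of bile acid synthesis, with Gm49388, which shares its peak, Pde4c (0.995), a cAMP phosphodiesterase, and Washc2 (0.995), a subunit of the endosomal WASH complex. Hsd3b7 was at 166, 168 and 229 CPM in control and 361, 384 and 403 CPM in cadmium replicates 1, 2 and 3, so it had the high control replicate 3 and the order of the cadmium libraries of Mt2, at a log2 change of 1.03. The 5 most negative were Dnaja2 (r = -0.991), a co-chaperone of HSP70, Sbno1 (-0.987), P2ry1 (-0.986), a purinergic receptor, with Gm37035, which shares its peak, and the kinase gene Riok3 (-0.985). Their log2 changes ran from -0.76 to 1.03, and Washc2, Sbno1 and Riok3 were not called (edgeR adjusted p = 0.213, 0.227 and 0.134).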

How the data were processed

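Tools listed without role or setting, per the submitters' processing notes, were MACS2 2.1.1, DESeq2 4.1.0, STAR 2.7.1a, cutadapt 1.1.8 and SAMtools 1.3.1, and the build was mm10. The authors deposited 1 table of raw counts per peak for 6 libraries, beside raw and adjusted p-values and the log2 fold change of each peak. Whether the authors called peaks per sample or on pooled samples, and whether counting used strand, are points not given in the sources used here. Members and gene lists were chosen with earlier results of these data known.

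The test was run in edgeR 4.0.16 (R 4.3.3): filterByExpr (minimum count 10, minimum total 15), TMM scaling and the quasi-likelihood F test of 3 against 3 libraries over the whole table. The SE of a log2 change is its size over the square root of F. Log2 CPM used a prior count of 2 and ratios a pseudocount of 0.5 (exact permutation, scipy 1.17.1). The script was tested on simulated data. A gene was represented by its peak with the highest mean CPM. Named genes were all metallothionein peaks, neighbours within 200 kb, up to 4 called and the 2 most abundant uncalled genes per list, and the 5 genes most like and most unlike the metallothioneins. A neighbouring gene is not reported here. Labels give replicates as batches, and deviations from group means correlated at 0.147, 0.210 and 0.171 within batches and at -0.170 to 0.014 across them. Replicates differed beyond sampling noise (chi-square per degree of freedom 31.9 to 161). Alternatives were other scalings, no filter, DESeq2 1.42.0, the batch block, summed or single-symbol peaks and leaving out each library.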

Additional observations from a re-analysis of the deposited data

How the results depend on the processing

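The 4 metallothionein peaks kept their direction and were called under all 13 alternatives, with log2 changes of 3.85 to 4.63 (first) and 4.02 to 4.83 (second) for Mt2 and 2.88 to 3.63 and 3.06 to 3.81 for Mt1. The replicate block gave 4.2, 4.38, 3.27 and 3.43 for these 4 peaks in that order and changed no call of theirs, and among the other list genes and neighbours named here it changed those of G6pc, Fkbp5, Zbtb16 and Gm15889. The Mt2 to Mt1 shift was 0.76 to 1.07 with 1 library left out, 0.94 with a pseudocount of 1 or with all peaks summed, and 0.94 by sign flips of the pairs (exact permutation p = 0.25, the smallest possible with 3 pairs). The number of peaks called over the whole table was 2057 higher and 1653 lower by DESeq2, 547 lower with total counts as scaling, and 282 to 986 higher and 261 to 1001 lower with 1 library left out. No scaling moved the median log2 change of all peaks by more than 0.04.

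Counts of called list genes were small and moved more. Among zinc transporters 1 rather than 2 was higher with DESeq2 size factors or total counts (0 to 1 with 1 library left out), and 0 rather than 1 lower with upper quartile scaling or total counts (0 to 0 with 1 library left out). With peaks of a single symbol only, 1 member of the metallothionein list, Mt1, and 0 copper genes were called. With total counts, 0 acute phase genes were lower and 0 NRF2 targets higher. NRF2 targets were called lower at 1 by DESeq2, at 1 with the replicate block and at 2 with counts summed per gene. With 1 library left out, copper genes were called higher at 0 to 1, glucocorticoid-induced genes lower at 2 to 6, acute phase genes higher at 3 to 7 and lower at 0 to 0, and NRF2 targets higher at 0 to 1 and lower at 0 to 2. In these cases the cause was not tested.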
